A study of Rattus norvegicus with 63 samples.

Results

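The 10 genes described here encode liver enzymes of methionine and one-carbon metabolism. They are Mat1a, Gnmt, Ahcy, Bhmt, Sardh, Dmgdh, Cbs, Cth, Shmt1 and Shmt2, taken by symbol from the array annotation, and all 10 were measured, out of 10411 genes with a probe set of a single symbol. Only Sardh had more than 1 probe set, and the one with the higher mean over all 63 arrays stood for it. Liver RNA came from male Wistar Hanover rats, 8 to 10 weeks old at dosing and given a compound or its vehicle by gastric gavage. Of 5 rats dosed per group, 3 were chosen after histopathology and hybridised to 1 Affymetrix array each, so the 3 arrays of a group are separate animals that were not drawn at random.

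The 15 compounds, with 3 arrays each, were compared with the 3 vehicle arrays that carry the same control set number in the labels. Ethionine (ETH, 200 mg/kg/d for 14 days), Piperonylbutoxide (PBO, 1200 mg/kg/d for 3 days) and Diethylstilbestrol (DES, 10 mg/kg/d for 3 days) shared Methylcellulose set 5. Acetamide (AA, 3000 mg/kg/d), Dehydroepiandrosterone (DHEA, 600 mg/kg/d) and Methylcarbamate (Mcarb, 400 mg/kg/d), each for 14 days, shared set 1 with Methapyrilene HCl (MPy, 60 mg/kg/d) and Thioacetamid (TAA, 19.2 mg/kg/d), each for 7 days, and with Wy-14643 (Wy, 60 mg/kg/d for 3 days). Cefuroxime (CFX, 250 mg/kg/d) and Nifedipine (Nif, 3 mg/kg/d) were given for 14 days and had set 2. Phenobarbital sodium (PB), given for 14 days, had set 6. C.I Direct Black (CIDB, 146 mg/kg/d) and Dimethylnitrosamine (DMN, 4 mg/kg/d), each for 7 days, had Corn Oil set 3, and Cyproterone acetate (CPA, 100 mg/kg/d for 14 days) had Corn Oil set 4. The labels give 7 days for set 3 and 14 days for the other sets, so by the labels the controls of PBO, DES, Wy, MPy and TAA were dosed for longer than the treated rats. The paper instead describes the controls as time-matched, and this difference could not be resolved here. If the labels hold, compound and dosing time cannot be told apart in any difference under those compounds. Arrays of a group correlated at 0.9876 to 0.9965. The 10 hepatocyte marker genes measured, of 11 listed, were among the brightest on the arrays, albumin (Alb) at the top and the transcription factor Hnf4a lowest, at the 82nd percentile of all probe sets.

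As background, the liver activates methionine to S-adenosylmethionine, which donates its methyl group and leaves S-adenosylhomocysteine and then homocysteine. Homocysteine is either methylated back to methionine, with a methyl group from betaine or from folate, or passed by transsulfuration to cysteine. The carbon units move between serine, glycine, sarcosine, dimethylglycine and folate. Mat1a makes S-adenosylmethionine in the adult liver, Gnmt spends it on methylating glycine to sarcosine, and Ahcy splits S-adenosylhomocysteine. Bhmt transfers the betaine methyl group to homocysteine and leaves dimethylglycine, which Dmgdh demethylates to sarcosine and Sardh then to glycine. Cbs and Cth are the consecutive transsulfuration enzymes, and Shmt1 in the cytosol and Shmt2 in mitochondria interconvert serine and glycine. Ethionine is the ethyl analogue of methionine and is used by the same activating enzyme.

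Over the 15 compounds, 32 of the 150 comparisons of a member with its control set passed an adjusted p of 0.05 over all 15866 probe sets in limma, 6 as a rise and 26 as a fall. PBO had the most, with 8 members down, where 7.46% of all probe sets fell. Wy had 6 down (6.45% of all probe sets). CIDB had 2 up and 3 down (8.14% up and 5.75% down over all probe sets), ETH 2 up and 2 down (11.7% and 11.8%), and TAA 1 up and 3 down (3.15% and 3.25%). MPy had 2 down (3.04%), DES 1 down (8.72%), DMN 1 down (0.920%) and CPA 1 up (3.11%).

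**Figure D1:**
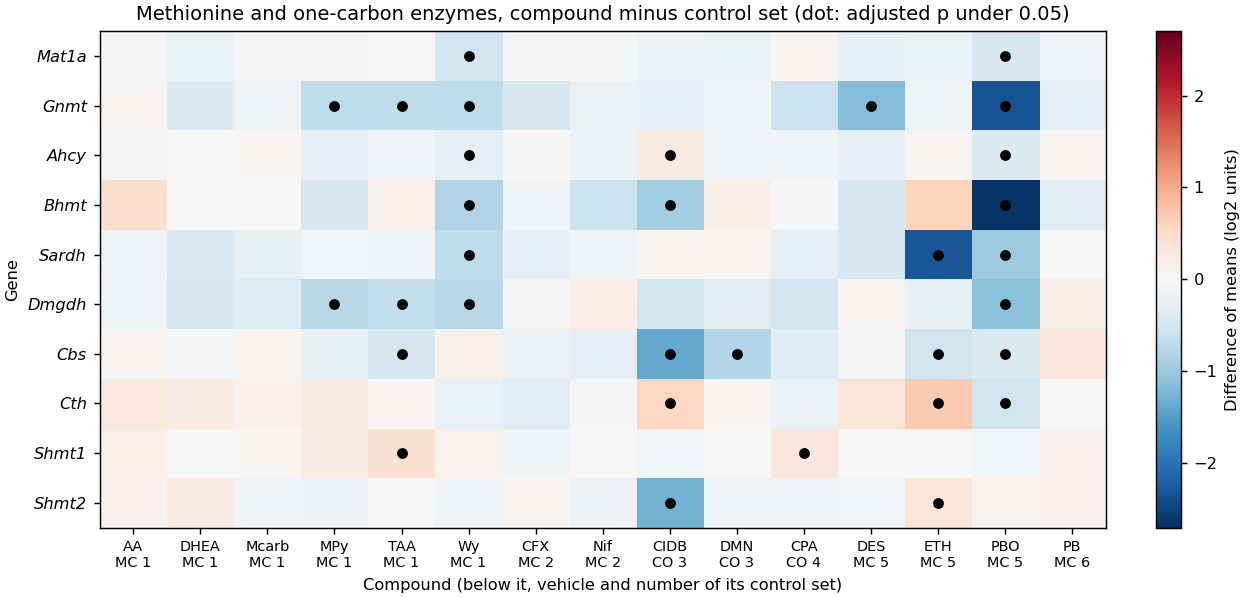
Difference of the group means, compound minus its control set, in log2 units (colour) for the 10 genes (rows) and the 15 compounds (columns, ordered by control set, with vehicle and set number below), 3 arrays a group. Dots mark the 32 differences with an adjusted p under 0.05, and the darkest cells are Bhmt and Gnmt under PBO and Sardh under ETH.

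No member passed the threshold under the other 6 compounds. In limma, the members with an unadjusted p under 0.05 numbered 2 for DHEA, 1 each for CFX, Nif and PB, and 0 for AA and Mcarb. Of all probe sets, 17.7% were called under DHEA, 8.46% under Nif, 4.66% under AA, 1.35% under PB, 1.07% under Mcarb and 0.00630% under CFX. With array weights DHEA had 1 member called, and with the control sets pooled by vehicle it had 4. The share of all probe sets called in those fits is not given here. The median difference of the members was −0.48 under PBO, −0.38 under Wy, −0.19 under CIDB and −0.07 under ETH, beside −0.02, −0.003, −0.02 and −0.03 over all probe sets. Compounds of 1 control set share its 3 arrays, so their differences are not independent of each other.

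Under ethionine, Sardh was lower and Cth and Shmt2 were higher than in Methylcellulose set 5, while Mat1a, Gnmt, Ahcy, Shmt1 and Dmgdh did not pass the test. Sardh, the sarcosine-demethylating enzyme, had RMA log2 levels of 9.37, 8.99 and 7.49 on the ETH arrays, against 10.79, 11.05 and 10.95 on the set 5 arrays. The groups did not overlap, and ETH replicate 3 was the lowest of all 63 arrays. The difference was −2.31 ± 0.23 (SE), a 4.97-fold lower level (adjusted p = 3.59e-11). Without that array it was −1.75. The spread within ETH (SD 0.99, n = 3) was far above that of set 5 (SD 0.13, n = 3), and a fit on these 6 arrays alone gave an SE of 0.39 and an adjusted p of 0.00438.

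Cth, which splits cystathionine to cysteine, had levels of 12.65, 13.05 and 12.76 under ETH and 12.02, 11.83 and 12.46 in set 5. All 3 ETH arrays stood above all 3 controls, and Cth rose by 0.71 ± 0.15, or 1.64-fold (adjusted p = 0.000334). Shmt2 had levels of 11.46, 11.64 and 11.62 under ETH and 11.20, 11.30 and 11.28 in set 5, again without overlap. It rose by 0.32 ± 0.08, or 1.25-fold (adjusted p = 0.00355).

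Cbs, the first transsulfuration enzyme, had levels of 11.68, 11.58 and 11.76 under ETH and 12.03, 12.25 and 12.34 in set 5. The groups did not overlap, and the fall was −0.53 ± 0.13 (adjusted p = 0.00151). This difference rested on the control set. Set 5 had the highest Cbs of the 6 control sets, whose means ran from 11.68 to 12.20, and against all 12 Methylcellulose arrays the difference was −0.19 (adjusted p = 0.254). The calls of Sardh, Cth and Shmt2 were kept against the pooled controls, at −2.02, 0.60 and 0.41.

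Bhmt was highest under ETH of all 21 groups. Its levels were 13.71, 13.79 and 13.68 under ETH and 13.14, 12.96 and 13.26 in set 5, with no overlap. The difference of 0.61 ± 0.27 (95% interval 0.06 to 1.15) missed the threshold in the fit over all arrays (adjusted p = 0.102), in which Bhmt has a wide spread. It passed against the pooled Methylcellulose arrays (0.67, adjusted p = 0.0166) and in a fit on the 6 arrays (adjusted p = 0.00421). Over the alternatives that left out 1 array the adjusted p was 0.119 to 0.256.

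The other 5 members differed little under ETH. Mat1a had 13.14, 13.31 and 13.10 under ETH and 13.23, 13.50 and 13.33 in set 5, and its difference was −0.17 (95% interval −0.39 to 0.05). The intervals were −0.56 to 0.26 for Gnmt, −0.09 to 0.25 for Ahcy, −0.15 to 0.15 for Shmt1 and −0.56 to 0.18 for Dmgdh. For these 5 genes the ETH and control arrays overlapped. The interval of Gnmt leaves room for a fall by 0.56 on the log2 scale. For Shmt1 set 5 had the highest mean of the 6 control sets (10.63), and against the 12 pooled Methylcellulose arrays the difference was 0.16 (adjusted p = 0.0632), outside that interval.

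**Figure D2:**
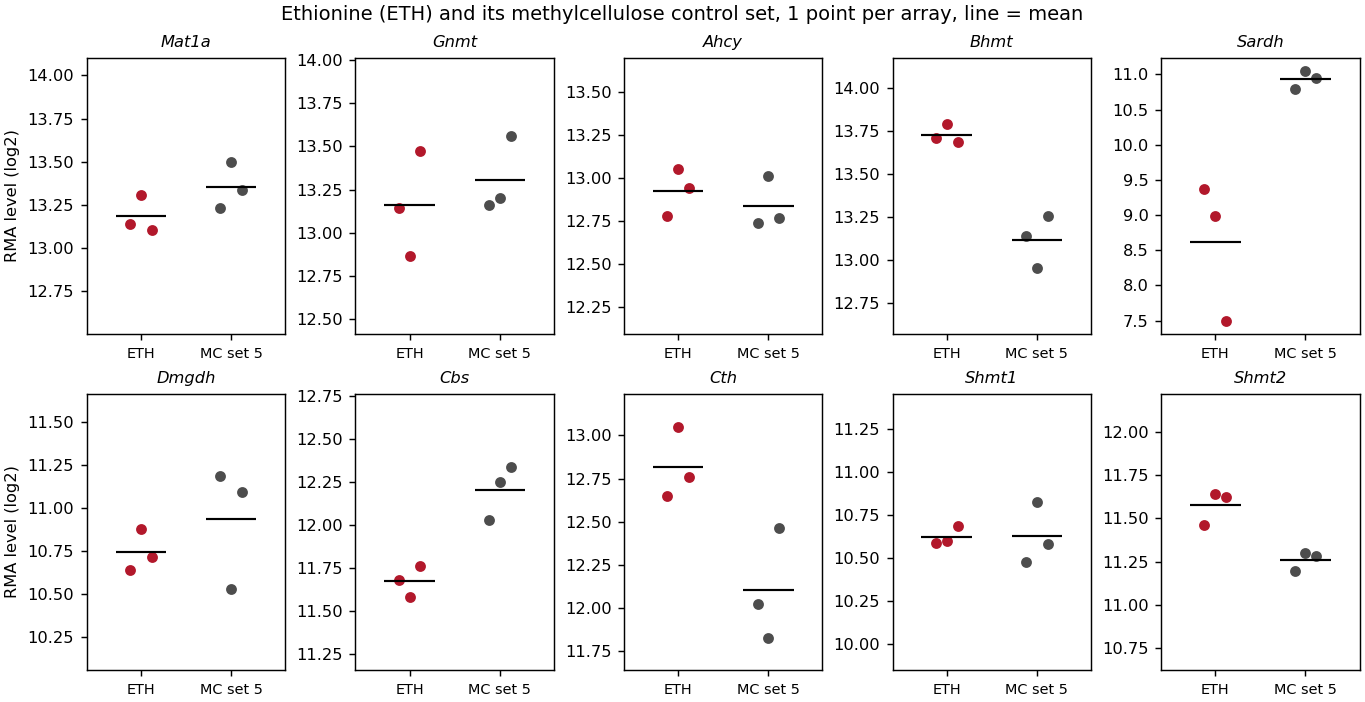
RMA log2 level (vertical axis, a separate range per panel) of each gene on the 3 ETH arrays (red, left) and the 3 arrays of Methylcellulose set 5 (grey, right), with lines at the means. The groups do not overlap for Bhmt, Sardh, Cbs, Cth and Shmt2, and Sardh spreads from 7.49 to 9.37 under ETH. With 3 against 3 arrays this also occurs without a call. Of the 10 members, 4 did not overlap under CFX and 4 between sets 1 and 2, with 0 called in either. The share of all probe sets without overlap is not given here.

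To see where ethionine differed from the other compounds, the ETH difference was set against the mean difference of the other 14. By this contrast 4 members passed, 3 higher and 1 lower, where 10.0% of all probe sets were higher and 9.93% lower. Sardh was lower by −2.07 ± 0.23 (adjusted p = 1.43e-09), with a mean difference of −0.25 over the other 14. Bhmt was higher by 1.01 ± 0.27 (adjusted p = 0.00548), with a mean difference of −0.40 over the other 14, of which PBO was the lowest. Without PBO among them, an alternative chosen after seeing the data, that mean was −0.22 and Bhmt was higher by 0.83 ± 0.28 (adjusted p = 0.032). Shmt2 was higher by 0.42 ± 0.09 (adjusted p = 0.000195) and Cth by 0.67 ± 0.16 (adjusted p = 0.0011). Cbs did not pass (−0.28, adjusted p = 0.127), and neither did Gnmt (0.41, adjusted p = 0.169). Each of these 4 calls was kept when any 1 of the 63 arrays was left out, and without PBO.

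**Figure D3:**
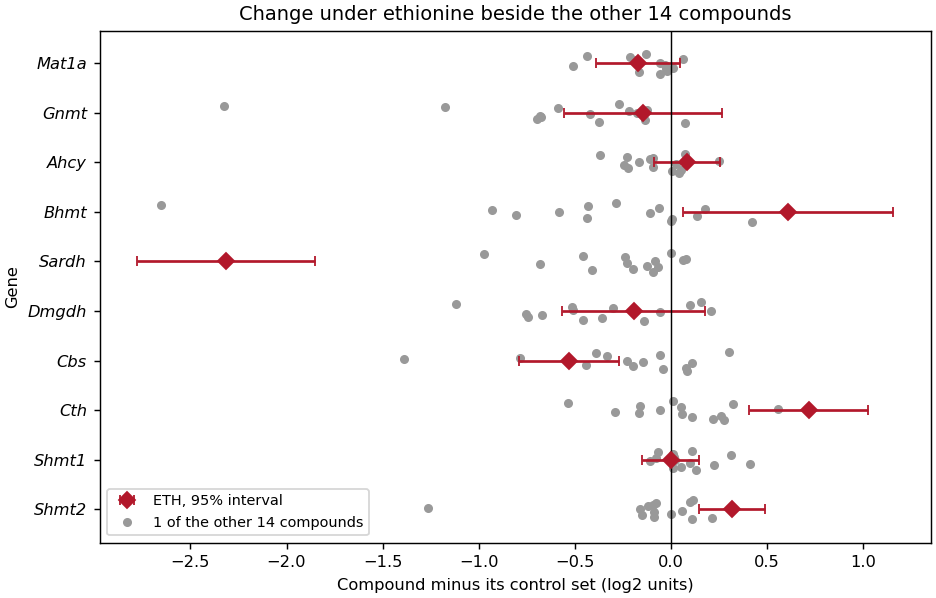
Compound minus control set in log2 units (horizontal axis) for each gene, with ETH as red diamonds and 95% intervals and each of the other 14 compounds as a grey point. ETH lies below all other compounds for Sardh and above all of them for Bhmt, Cth and Shmt2.

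The 2 probe sets of Sardh were both lower under ETH but not alike elsewhere. The one with the lower mean had levels of 8.33, 8.43 and 7.30 under ETH and 9.67, 9.70 and 9.42 in set 5, a difference of −1.58 ± 0.20 (adjusted p = 3.66e-08). Under Nif it read 9.11, 8.29 and 8.39, against 10.04, 10.10 and 9.92 in set 2, a fall of −1.42 ± 0.20 (adjusted p = 1.6e-06). The probe set that stands for Sardh above showed no such fall under Nif (−0.09, adjusted p = 0.87). For PBO the order was reversed, with −0.98 ± 0.23 in the probe set of higher mean (adjusted p = 0.00192) and −0.14 in the other (adjusted p = 0.727). For Wy it was −0.68 in the first of these (adjusted p = 0.0384) and −0.47 in the other (adjusted p = 0.139). As the mean of both, Sardh no longer passed under PBO (−0.56, adjusted p = 0.0627) or Wy (−0.58, adjusted p = 0.053). The probe set of lower mean still read lower on the Wy arrays (9.10, 9.12 and 9.08) than in set 1 (9.54, 9.62 and 9.54), without overlap. Which transcripts each probe set reads was not tested.

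**Figure D4:**
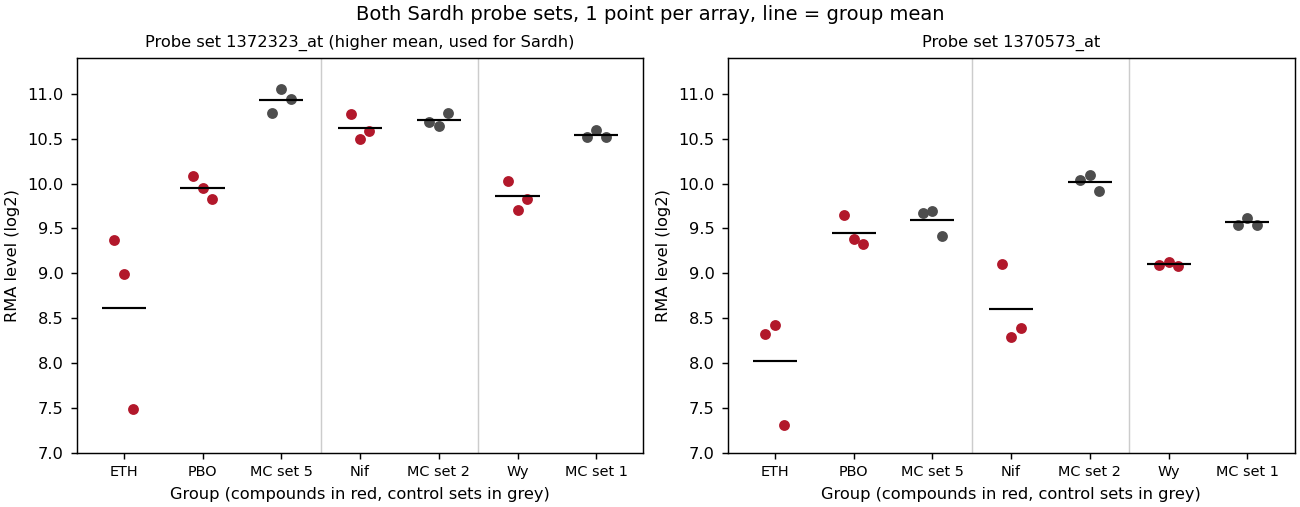
RMA log2 level of the 2 Sardh probe sets (left and right panel) on each array of ETH, PBO, Nif and Wy (red) and of their Methylcellulose sets (grey), with lines at the means. Both panels show the ETH mean lowest. On the right the Nif arrays, from 8.29 to 9.11, overlap with those of ETH, from 7.30 to 8.43, while on the left Nif is not low.

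PBO had the broadest change of these enzymes. Bhmt had levels of 9.87, 10.63 and 10.91 under PBO, against 13.14, 12.96 and 13.26 in set 5. It fell by 2.65 ± 0.27 on the log2 scale, to a 6.28-fold lower level (adjusted p = 5.29e-10). Gnmt had 10.73, 10.88 and 11.35 under PBO and 13.16, 13.20 and 13.56 in set 5, and it fell by 2.32 ± 0.20, to a 5.00-fold lower level (adjusted p = 8.84e-12). The 3 PBO arrays were the lowest of the 63 for Gnmt. For Bhmt they were below all 18 control arrays, with 1 CIDB array at 10.72 among them.

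Dmgdh, the enzyme after Bhmt in betaine breakdown, had 10.03, 9.67 and 9.77 under PBO and 11.19, 10.53 and 11.09 in set 5. It fell by 1.12 ± 0.18 (adjusted p = 1.55e-05). The falls of Mat1a (−0.44, adjusted p = 0.00364) and Ahcy (−0.37, adjusted p = 0.00146) were small but free of overlap. Cbs (−0.39, adjusted p = 0.0325) and Cth (−0.53, adjusted p = 0.0125) were the weakest calls. Cbs was no longer called without set 5 replicate 8 or 9 or PBO replicate 2 or 3 (adjusted p up to 0.176), nor against the pooled Methylcellulose arrays (−0.05, adjusted p = 0.869). The Cth arrays overlapped, and its call ended without set 5 replicate 9 or PBO replicate 1 or 2 (adjusted p up to 0.17). Against the pooled Methylcellulose arrays the Cth call was kept (−0.65, adjusted p = 0.000102). Neither Shmt1 (−0.07, adjusted p = 0.615) nor Shmt2 (0.10, adjusted p = 0.501) passed.

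Bhmt and Gnmt, the members that fell most under PBO, had the highest Pearson's r of any pair of members over the 21 group means, so their promoters are shown. Pearson's r was 0.81 and Spearman's rho 0.69, and r was 0.62 without the PBO group, as a description of groups that in part share control arrays. By rho Sardh and Dmgdh ranked higher (0.72). Without PBO, by r, so did Bhmt and Shmt2 (0.76), Gnmt and Dmgdh (0.69), Cbs and Shmt2 (0.69), and Cbs and Dmgdh (0.67). RefSeq promoter windows (build GRCr8), from 250 bases before to 50 after the start, were found for 9 of the 10 members. Capitals mark the motifs searched on both strands, which were the TATA box core TATAA, the CCAAT box of those letters, the GC box GGGCGG, the E box CACGTG and the nuclear receptor half-site AGGTCA. No match overlapped another in these windows. The Bhmt window is chr2:26614380-26614679 on the minus strand and the Gnmt window chr9:21752032-21752331 on the plus strand, both written 5′ to 3′ along the gene.
Bhmt: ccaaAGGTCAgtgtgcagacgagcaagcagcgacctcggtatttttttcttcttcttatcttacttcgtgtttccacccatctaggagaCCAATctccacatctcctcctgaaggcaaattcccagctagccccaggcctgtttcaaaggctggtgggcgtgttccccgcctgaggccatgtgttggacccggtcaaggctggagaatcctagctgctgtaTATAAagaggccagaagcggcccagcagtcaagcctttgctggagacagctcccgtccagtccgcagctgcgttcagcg
Gnmt: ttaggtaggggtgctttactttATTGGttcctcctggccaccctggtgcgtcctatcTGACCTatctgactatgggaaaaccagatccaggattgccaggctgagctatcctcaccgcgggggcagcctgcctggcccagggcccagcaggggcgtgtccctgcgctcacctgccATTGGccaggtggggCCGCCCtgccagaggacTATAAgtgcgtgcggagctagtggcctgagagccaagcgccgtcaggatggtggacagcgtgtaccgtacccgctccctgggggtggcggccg
Both windows hold TATAA, 29 bases before the start in Bhmt and 43 in Gnmt, a motif found in 26.2% of all 33469 windows. Both also hold CCAAT, as ATTGG in Gnmt (37.5% of windows), and the half-site AGGTCA, in the form TGACCT in Gnmt (16.2% of windows). The GC box, read as CCGCCC in the printed strand, was in Gnmt only (33.1% of windows), and the E box was in neither (6.42% of windows). These matches describe the letters alone, and no binding was measured.

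Under Wy, a PPARalpha agonist, 6 members fell by 0.24 to 0.80 on the log2 scale. Bhmt had 12.36, 11.33 and 12.26 under Wy and 12.93, 12.63 and 12.81 in set 1, a difference of −0.80 ± 0.27 (adjusted p = 0.0397). Mat1a had 12.90, 12.66 and 12.92 under Wy and 13.34, 13.22 and 13.45 in set 1, and it fell by 0.51 ± 0.11 (adjusted p = 0.000714). Neither gene overlapped with its controls. Dmgdh fell by 0.75 ± 0.18 (adjusted p = 0.00309), Sardh by 0.68 ± 0.23, Gnmt by 0.68 ± 0.20 (adjusted p = 0.0185) and Ahcy by 0.24 ± 0.08 (adjusted p = 0.0456). Only Mat1a and Dmgdh kept the call whichever array was left out. Without Wy replicate 2, or without set 1 replicate 4, those 2 were the only members called, and the Bhmt difference without Wy replicate 2 was −0.48 (adjusted p = 0.376). Without set 1 replicate 5 or 6 or Wy replicate 3, 3 members were called, and without Wy replicate 1 Ahcy was lost. Against the 12 pooled Methylcellulose arrays all 6 were called. The differences were −1.07 for Bhmt (adjusted p = 0.000271), −0.81 for Gnmt (adjusted p = 0.000175), −0.78 for Sardh (adjusted p = 0.00163) and −0.27 for Ahcy (adjusted p = 0.00148). The share of all probe sets called in that fit is not given here. Hepatocyte markers also moved under Wy, with 6 of the 10 measured called lower and a summed linear level of 111600 to 127300 under Wy, against 139700 to 141700 in set 1. Markers of other cells were lower than in set 1 too. Of 10 macrophage markers 6 fell (summed level 6185 to 8053 under Wy, 10040 to 11310 in set 1), of 5 endothelial markers 3 (2099 to 2438 under Wy, 3226 to 3255 in set 1) and of 12 stellate cell and matrix markers 3 (4330 to 5788 under Wy, 6022 to 6794 in set 1), and none of these rose. For these other cells Methylcellulose set 5 lay below set 1 and overlapped with Wy. Its sums were 7699 to 9594 for macrophage, 2271 to 3182 for endothelial and 4210 to 5211 for stellate cell and matrix markers. Of the 12 stellate cell and matrix markers 2 were called higher in set 1 than in set 5. In such bulk tissue fewer cells of a type and less RNA per cell cannot be told apart, and the part of these shifts in the members' falls was not tested.

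CIDB, 1 of the 2 genotoxic carcinogens of the series, lowered Shmt2, Cbs and Bhmt. Shmt2 had 9.89, 9.93 and 10.14 under CIDB and 11.36, 11.20 and 11.19 in Corn Oil set 3. It fell by 1.27 ± 0.08, to a 2.40-fold lower level (adjusted p = 1.27e-16), and the 3 CIDB arrays were the lowest of the 63. Cbs had 10.31, 10.95 and 10.38 under CIDB and 11.93, 12.02 and 11.87 in set 3. It fell by 1.39 ± 0.13, to a 2.62-fold lower level (adjusted p = 1.2e-11), without overlap. The genotoxic DMN lowered Cbs as well, with 11.31, 10.99 and 11.16 under DMN and a fall of 0.78 ± 0.13 (adjusted p = 6.9e-05), while Shmt2 did not pass (−0.12, adjusted p = 0.513). CIDB and DMN share the arrays of set 3. The fall of Cbs was not limited to them. It was also called lower under ETH, PBO and TAA, so under 5 of the 15 compounds, and higher under none. The ETH and PBO calls were not kept against the pooled Methylcellulose arrays (−0.19, adjusted p = 0.254, and −0.05, adjusted p = 0.869). With controls pooled by vehicle the calls under CIDB, DMN and TAA were kept, and CPA was called lower too (−0.39, adjusted p = 0.0455). The share of all probe sets called lower under as many compounds is not given here.

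The other calls under CIDB were weaker. Bhmt had 10.72, 12.06 and 11.13 under CIDB and 11.72, 12.55 and 12.43 in set 3, with overlap (−0.93 ± 0.27, adjusted p = 0.0138). That call ended without CIDB replicate 1 or 3 or set 3 replicate 5 or 6 (adjusted p up to 0.169), and the difference without 1 array ran from −1.31 to −0.64. Cth rose by 0.56 ± 0.15 (adjusted p = 0.0092, lost without CIDB replicate 3 at 0.0711) and Ahcy by 0.25 ± 0.08 (adjusted p = 0.0386, lost without any 1 of the 6 arrays, at 0.0603 to 0.131). Against the pooled Corn Oil arrays these calls were kept. The differences were −1.26 for Bhmt (adjusted p = 0.000127), 0.43 for Cth (adjusted p = 0.0222) and 0.22 for Ahcy (adjusted p = 0.0267).

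Against the control set of each compound, Gnmt, the methyltransferase of glycine, fell under 5 compounds and rose under none. Besides PBO and Wy these were DES, MPy and TAA. The share of all probe sets called lower under as many compounds is not given here. By the labels, PBO, Wy, DES, MPy and TAA are also the compounds whose controls were dosed for longer than the treated rats. The paper describes time-matched controls. If the labels hold, compound and dosing time cannot be told apart in these falls. The same limit applies to the differences of the other members under these compounds. Under DES Gnmt had 12.52, 12.02 and 11.85, against 13.16, 13.20 and 13.56 in set 5, a fall of 1.18 ± 0.20 or 2.26-fold (adjusted p = 2.34e-05). The groups did not overlap and the call was kept without any 1 array. Under MPy the fall was 0.70 ± 0.20 (adjusted p = 0.0279) and under TAA 0.68 ± 0.20 (adjusted p = 0.0346). Both were lost without set 1 replicate 4 or 6 and without single treated arrays (MPy replicate 1, 2 or 3, TAA replicate 1 or 3), at adjusted p up to 0.125 for MPy and 0.197 for TAA. Against the pooled Methylcellulose arrays Gnmt was called lower under MPy (−0.83, adjusted p = 0.000258) and TAA (−0.81, adjusted p = 0.000434). In that fit Gnmt was also called lower under DHEA (−0.51, adjusted p = 0.0205).

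Dmgdh also fell under MPy (−0.75 ± 0.18, adjusted p = 0.00673, lost without MPy replicate 3 at 0.0737). Under TAA it fell by 0.67 ± 0.18 (adjusted p = 0.0181). TAA lowered Cbs by 0.44 ± 0.13 (adjusted p = 0.0295). Leaving out set 1 replicate 4 or 6 or TAA replicate 3 ended both TAA calls, as did TAA replicate 1 for Dmgdh and set 1 replicate 5 for Cbs (adjusted p up to 0.101 for Dmgdh and 0.197 for Cbs). Against the pooled Methylcellulose arrays both TAA calls were kept, Dmgdh at −0.64 (adjusted p = 0.00167) and Cbs at −0.57 (adjusted p = 0.000557). The Dmgdh call under MPy was kept as well (−0.72, adjusted p = 0.000412). Shmt1 was the member that rose under TAA, with 10.78, 10.71 and 10.65 under TAA and 10.29, 10.24 and 10.36 in set 1 (0.41 ± 0.07, adjusted p = 0.000202). It also rose under CPA, with 10.72, 10.78 and 10.73 under CPA and 10.47, 10.44 and 10.39 in Corn Oil set 4 (0.31 ± 0.07, adjusted p = 0.00432). Both Shmt1 rises were free of overlap and kept without any 1 array. Set 1 had the lowest Shmt1 mean of the control sets (10.30), and against the pooled Methylcellulose arrays the TAA rise was 0.25 (adjusted p = 0.00943). Against the pooled Corn Oil arrays the CPA rise was 0.36 (adjusted p = 0.000796).

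**Figure D5:**
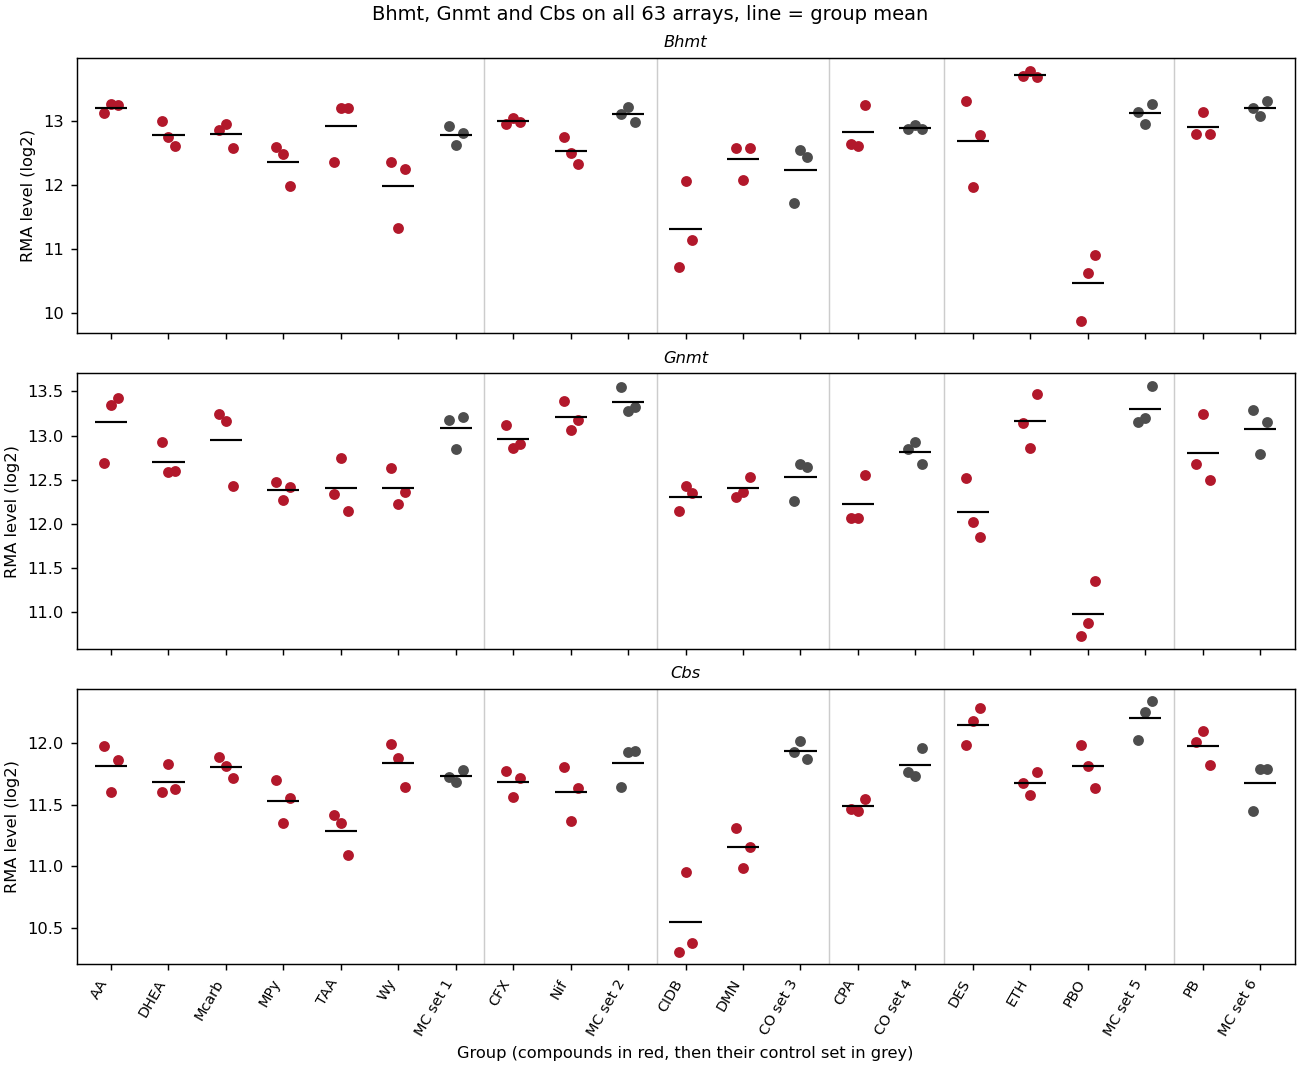
RMA log2 level (vertical axis) of Bhmt, Gnmt and Cbs on all 63 arrays, with each control set (grey) right of the compounds compared with it (red) and lines at the group means. The means of Bhmt and Gnmt are lowest under PBO, whose arrays lie between 9.87 and 11.35, the mean of Bhmt is highest under ETH, and that of Cbs is lowest under CIDB.

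Of the 32 calls, 18 were kept whichever single array was left out and 14 were lost in at least 1 such fit. The kept ones were Sardh, Cth, Shmt2 and Cbs under ETH, Bhmt, Gnmt, Dmgdh, Sardh, Mat1a and Ahcy under PBO, Mat1a and Dmgdh under Wy, Cbs and Shmt2 under CIDB, Cbs under DMN, Gnmt under DES, and Shmt1 under TAA and CPA.

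The control sets themselves differed in some members, which bears on the comparisons with sets 1, 5 and 6. Between set 1 and set 5, Cbs (−0.48, adjusted p = 0.0408) and Shmt1 (−0.33, adjusted p = 0.0136) were lower in set 1, where 2.14% of all probe sets were called. Between set 5 and set 6, Cbs (0.53, adjusted p = 0.00482) and Shmt2 (0.27, adjusted p = 0.0282) were higher in set 5, where 10.2% were called. The first count was 0 without set 1 replicate 4 or 5 or set 5 replicate 8, and the second 0 without set 6 replicate 1. In the other 5 pairs of sets of 1 vehicle no member was called by limma, with 1 member at an unadjusted p under 0.05 in each. In those pairs 7.77% of all probe sets were called between sets 1 and 6, 2.72% between sets 2 and 5, 1.95% between sets 2 and 6, 0.914% between sets 1 and 2, and 0.466% between the Corn Oil sets.

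Across all 63 arrays Bhmt varied most, from 9.87 to 13.79 (SD 0.75), followed by Gnmt, from 10.73 to 13.56 (SD 0.58), and Sardh, from 7.49 to 11.05 (SD 0.51). Ahcy and Shmt1 varied least, with an SD of 0.15 each. These are spreads of a gene about its own mean, since levels of different probe sets are not comparable. In Bhmt the group means ran from 10.47 under PBO through 11.30 under CIDB and 11.98 under Wy to 13.73 under ETH. The control means ran from 12.24 to 13.20, and most other groups lay among them. In Sardh the ETH mean of 8.62 was the lowest, followed by Wy at 9.86 and PBO at 9.95, whose arrays overlapped. The control means of Sardh ran from 10.17 to 10.93, with set 5 highest.

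The genes whose 21 group means ran most like each member were found among 10410 others by Pearson's r. Sardh was closest to Lcat, the plasma enzyme that esterifies cholesterol (r = 0.90), and to Slc27a5, the liver bile acid CoA ligase (r = 0.90), with r of 0.73 and 0.68 without ETH. Mat1a was closest to the hepatocyte proteins Ttr (r = 0.85), Apoc4 (0.82) and Apoc3 (0.81). Gnmt was closest to Sult1a1 (0.86) and, in its first 3, to Bhmt (0.81). Dmgdh was closest to Acox2, a peroxisomal oxidase of bile acid synthesis (0.84). Shmt1 was closest to Camkmt (0.83), Cbs to Scfd2 (0.80), Ahcy to Rab18 (0.79) and Cth to Il1a (0.78). Without the group farthest from the median, r was 0.83 for Shmt1 (CPA left out) and 0.54 for Cbs (CIDB left out). With PBO left out it was 0.76 for Ahcy and 0.67 for Cth. Shmt2 was closest to Serpina6 (0.86), though r was 0.40 without CIDB, so that likeness rested on 1 group. These values describe 21 group means, some of which share a control set.

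Among 79 other genes of the same metabolism, 64 were measured, and ETH raised 14 and lowered 12 of them (11.7% up and 11.8% down over all probe sets). In the methionine cycle list 1 of 12 rose and 5 fell. Mat2a, the form of the S-adenosylmethionine synthetase found outside the adult liver, had 8.19, 8.60 and 8.68 under ETH and 7.55, 6.80 and 7.58 in set 5. It rose by 1.18 ± 0.22 (adjusted p = 3.6e-05), while the liver form Mat1a did not pass. The methyltransferases Inmt (−2.42 ± 0.54, adjusted p = 0.000482), As3mt (−0.88 ± 0.14, adjusted p = 1.39e-06) and Gamt, of creatine synthesis (−0.60 ± 0.07, adjusted p = 1.56e-08), fell.

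In the list of transsulfuration and cysteine use 4 of 11 rose and 2 fell under ETH. Mpst, which moves sulfur from mercaptopyruvate, had 12.38, 12.44 and 12.40 under ETH and 11.45, 11.37 and 11.44 in set 5. It rose by 0.99 ± 0.08 (adjusted p = 4.35e-13), and the glutathione synthetase Gss rose by 0.90 ± 0.11 (adjusted p = 2.34e-08). Cdo1, which oxidises cysteine, and Csad, of taurine synthesis, fell by 0.53 ± 0.11 and 0.98 ± 0.34 (adjusted p = 0.000381 and 0.0274).

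In the folate list 6 of 15 rose and 1 fell under ETH. The fall was that of Ftcd, which feeds the carbon of histidine into folate. It had 10.83, 10.45 and 10.65 under ETH and 13.15, 13.19 and 13.25 in set 5, a difference of −2.55 ± 0.10 (adjusted p = 6.96e-26) with no overlap. Ggh, the hydrolase of folate polyglutamates, rose by 0.84 ± 0.14 (adjusted p = 3.23e-06). In the polyamine and salvage list 2 of 12 rose and 2 fell. The ornithine decarboxylase Odc1 (0.60 ± 0.14, adjusted p = 0.00126) and the spermidine synthase Srm (0.62 ± 0.14, adjusted p = 0.000691) rose, and Sat1, which acetylates polyamines for breakdown, was 1 of those that fell (−0.71 ± 0.17, adjusted p = 0.00149). Of the 9 glycine and serine genes 1 rose and 1 fell, and of the 5 of choline and betaine oxidation 1 fell.

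Some of these genes were called in 1 direction under many compounds. Gss rose under 8 of the 15, Odc1 under 6 and Srm under 5, while Odc1 fell under DES. The folate transporter Slc46a1 fell under 7, Ftcd under 6, and Gamt, Cdo1 and Sat1 under 5 each. The share of all probe sets called under as many compounds is not given here. Slc46a1 missed the threshold under ETH (−0.47, adjusted p = 0.0566). Under PBO 10 of the 64 rose and 14 fell (7.03% and 7.46% of all probe sets), Mat2a among the rises (0.94 ± 0.22, adjusted p = 0.00158). Under CIDB 4 rose and 13 fell (8.14% and 5.75% of all probe sets), and Slc46a1 fell most clearly of the genes named here (−1.39 ± 0.18, adjusted p = 1.23e-07).

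Markers of other liver cells moved with ETH and CIDB. Of 10 macrophage markers measured, of 12 listed, 9 rose and 1 fell under ETH, and their summed linear level was 18810 to 19700 on the ETH arrays, against 7699 to 9594 in set 5. Of 9 biliary markers 5 rose, with a sum of 2617 to 3494 under ETH and 1933 to 2107 in set 5. Hepatocyte markers gave 143600 to 152900 under ETH and 137200 to 141200 in set 5, with 2 of 10 higher and none lower. Of 3 erythroid markers 1 fell under ETH, with sums of 4357 to 8834 under ETH and 8899 to 12410 in set 5. Under CIDB 5 macrophage markers rose and 1 fell (10070 to 10560 under CIDB, 6856 to 9258 in set 3), and all 3 erythroid markers fell (652.8 to 783.7 under CIDB, 10640 to 16130 in set 3). Of the 9 biliary markers 3 rose under CIDB, with sums of 2022 to 2594 under CIDB and 1655 to 1955 in set 3. Under DMN 4 macrophage markers rose and 1 fell (11470 to 12660 under DMN, 6856 to 9258 in set 3), where 2.31% of all probe sets rose. Corn Oil set 4, which was given vehicle alone, had a macrophage sum of 9269 to 13160, which spans the sums under both DMN and CIDB. Under PBO no macrophage marker was called (6261 to 7975 under PBO, 7699 to 9594 in set 5), and of the hepatocyte markers 2 rose and 3 fell (124700 to 136000 under PBO, 137200 to 141200 in set 5). The part of these shifts in the members' differences was not tested.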

How the data were processed

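RNA of 63 rat livers was read on Affymetrix arrays, 45 from treated and 18 from control rats. The deposited log2 values of 15866 probe sets were made by the authors with RMA (package affy, version not given in the sources used here) from MAS 5.0 CEL files, a method that removes background, quantile-normalizes the arrays and summarises probes. They ran from 3.96 to 15.11, with array medians of 7.421 to 7.51, and were used as deposited. RMA compresses differences of dim probe sets, and with 3 arrays a group the number of arrays limits the precision.

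Genes were named from the platform annotation (12783 probe sets had 1 symbol, 312 several and 2771 none), and the probe set of highest mean over all arrays was taken for each gene. Group means of all 21 groups were fitted with limma 3.58.1 in R 4.3.3 (42 residual df, prior df 4.81), with Benjamini-Hochberg adjustment over all probe sets and a threshold of 0.05. Intervals are at 95%. Permuting 3 against 3 arrays cannot give a two-sided p under 0.1, so no exact test was used. The fit was tested on simulated data. The members and gene lists were chosen with earlier results of these data known. All 10 members are named, and of the other genes the 4 with the largest rise and the 4 with the largest fall among those called under ETH, plus those called in 1 direction under 5 or more compounds. Alternatives left out each array, centred arrays, weighted arrays, dropped dim probe sets, averaged the probe sets of a gene, used only the 6 arrays compared, pooled the controls by vehicle, or added a replicate block. Motifs were searched in RefSeq windows with Python 3.11.15, and figures were drawn with matplotlib 3.10.9.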

Additional observations from a re-analysis of the deposited data

How the results depend on the processing

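The ETH count was 4 members under the alternatives run, except 5 on its 6 arrays, where Bhmt joined. With pooled controls the 4 held Bhmt in place of Cbs. The contrast of ETH with the other 14 compounds had 4 under each alternative run, also without PBO, which was added after seeing the data, and AA, CFX, Mcarb and PB had 0. Other counts moved by over 1.5 times. CIDB had 3 members called in a fit on its 6 arrays. CPA had 4 with array weights, and 2 with pooled controls, without dim probe sets and on its 6 arrays. DES had 2 with centred arrays, with pooled controls and without dim probe sets. DHEA had 1 with array weights and 4 with pooled controls, DMN 2 with array weights, MPy 4 with pooled controls, and Nif 1 on its 6 arrays and 1 with the mean of a gene's probe sets. Set 5 against set 6 had 0 with array weights. Leaving out 1 array gave 2 to 5 members for CIDB, 1 to 3 for CPA, 1 to 2 for DES, 0 to 1 for DHEA, 1 to 2 for MPy, 6 to 8 for PBO, 1 to 4 for TAA, 2 to 5 for Wy, 0 to 2 for set 1 against set 5 and 0 to 3 for set 5 against set 6. Calls over all probe sets moved too. Without 1 array they ran from 1556 to 2231 probe sets for CIDB and from 1310 to 2017 for Wy. A changed member count therefore cannot be told apart from a change in calls over all probe sets. For most other alternatives the share of all probe sets called is not given here. The cause of these shifts was not tested.

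The values that changed sign were uncalled and close to 0. Shmt1 under ETH was 0.014 with centred arrays and 0.16 with pooled controls, and ran from −0.077 to 0.096 without 1 array, and Gnmt under ETH from −0.30 to 0.0018. In the contrast of ETH with the other 14 compounds, Mat1a ran from −0.095 to 0.028 and Shmt1 from −0.15 to 0.00040. Centring moved the median of all probe sets by at most 0.04. CPA and PB share replicate numbers with their controls, but same-numbered arrays did not deviate together (correlations of −0.15 to 0.17), so the numbers name the arrays only. With the replicate block, CPA had 2 members called and PB 0 on their 6 arrays, and 953 and 30 probe sets were called with the block, against 873 and 51 without it. Shmt1 under CPA then had an adjusted p of 0.0668.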
